A study of Mus musculus with 3 samples.

Results

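The genes described here encode the nuclear part of the mitochondrial respiratory chain and ATP synthase. They were taken by symbol, as names that begin with Ndufa, Ndufb, Ndufc, Ndufs or Ndufv and a digit, with Uqcr, with Cox and a digit for subunits 4 to 8, or with Atp5, together with Sdha, Sdhb, Sdhc and Sdhd, and without names ending in -ps. This rule found 89 of the 55211 genes measured: 40 of complex I, 4 of complex II, 8 of complex III, 19 of complex IV and 18 of complex V. The annotation calls 85 of them protein-coding and 4 processed pseudogenes (Ndufa11b, Ndufb4c, Ndufs6b and Cox6c2), and the symbol Atp5o names 2 genes. RNA came from 3 separate cultures of Ba/F3, a mouse haematopoietic line that depends on interleukin-3 (IL-3). All were grown in RPMI with 10% fetal calf serum, penicillin-streptomycin and 0.2 ng/mL recombinant murine IL-3. They form 1 group, with no second condition or control among the samples used here. The data therefore describe levels in a single line and differences between its cultures. They allow no comparison of conditions.

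The respiratory chain passes electrons from NADH and succinate to oxygen and pumps protons across the inner mitochondrial membrane. Complex I (NADH dehydrogenase) and complex II (succinate dehydrogenase) reduce coenzyme Q, complex III (cytochrome bc1) passes the electrons to cytochrome c, and complex IV (cytochrome c oxidase) reduces oxygen. ATP synthase, called complex V, uses the proton gradient to make ATP. Complex II is wholly nuclear-encoded, whereas the other complexes join nuclear subunits with a few that the mitochondrial genome encodes. Several subunits of complex IV exist in a widespread form and in forms known from heart and skeletal muscle, lung or testis.

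The gene counts of cultures 1, 2 and 3 summed to 32044889, 33880292 and 37180883 reads, so that 1 read was worth 0.0312, 0.0295 and 0.0269 CPM (reads per 1000000 reads of the culture). A gene with no read was below 0.0936, 0.0885 and 0.0807 CPM, the worth of 3 reads, which covers counting error only. Levels are CPM, as mean ± SD over the 3 cultures. The design text of the series calls the cultures separate, and p-values here measure only the spread between these 3 libraries, which may be technical in part. As a check of the label, 7 of 7 haematopoietic marker genes were detected, Ptprc at 437 ± 23.4 CPM and the IL-3 receptor β chain gene Csf2rb at 721 ± 21.7 among them. Of 8 granulocyte and monocyte genes 3 were detected (Mpo at 69.9 ± 2.06, Lyz2 at 10.2 ± 0.717 and Csf1r at 1.91 ± 0.209), and of 5 T and NK genes Cd3g (4.18 ± 0.228). Of 9 early B lymphoid genes 2 were detected, Cd79b (19.5 ± 1.22) and Cd79a (1.75 ± 0.118), and of 7 muscle genes Ckm (149 ± 32.2) and Tnni3 (3.41 ± 0.728), with no read of Myh4 or Mb. None of 6 germ cell and none of 5 fibroblast genes was detected.

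Nearly the whole set was expressed. Of the 89 genes, 77 were detected, meaning at least 1 CPM in all 3 cultures. That is 86.5%, beside 19.9% of all genes and 45.9% of protein-coding genes. The detected genes were 36 of 40 in complex I, 4 of 4 in complex II, 8 of 8 in complex III, 12 of 19 in complex IV and 17 of 18 in complex V. The 12 others were the 4 pseudogenes, 7 genes for alternative forms of a subunit (Cox4i2, Cox6a2, Cox6b2, Cox7b2, Cox8b, Cox8c and Ndufa4l2) and the second gene named Atp5o. That second Atp5o (chr16:91684398-91926982) had no read, and its exons lie wholly within exons of the other Atp5o and of Donson. Mean CPM, which carry transcript length and do not rank genes, ran from 2.05 to 964.

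**Figure D1:**
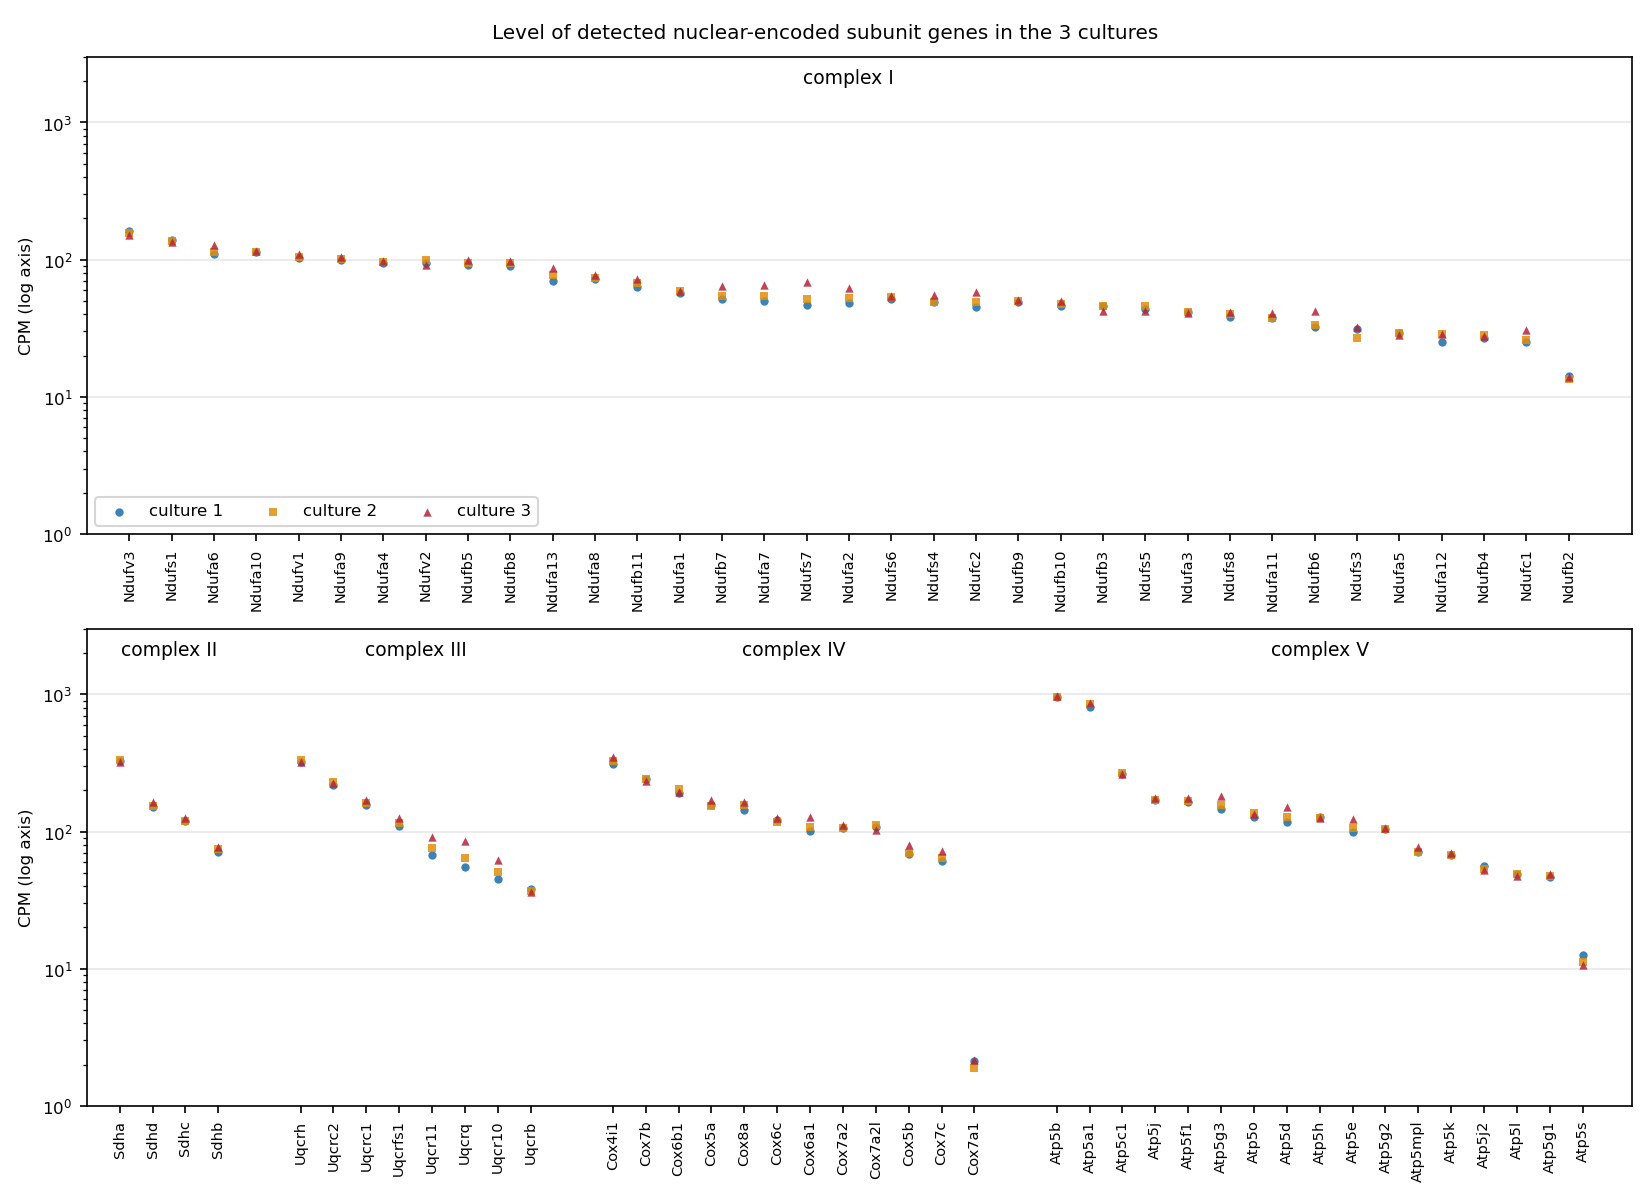
Level in CPM (log axis) of detected genes in cultures 1, 2 and 3, ordered by mean within each complex. Means run from 2.05 to 964 CPM. The 3 symbols of most genes overlap, while those of Uqcrq, Uqcr10, Uqcr11 and Ndufs7 separate with culture 3 on top.

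Reads of a gene grow with its transcript length, so levels of different genes are compared per kilobase, and CPM serve to compare cultures. Lengths were taken as the union of all annotated exons and, as an alternative chosen after the values were seen, as the annotation's principal transcript. The union was far longer for some genes, as for Atp5l with 6443 against 544 bases and Ndufb7 with 4522 against 623. The median detected gene of the set had 54.7 ± 1.09 CPM per kilobase of exon union and 94.9 ± 2.70 per kilobase of principal transcript. Detected protein-coding genes had a median of 15.6 on the principal scale, and 75 of the 77 genes lay above it. The exceptions were Atp5s (7.74) and Cox7a1 (5.23).

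Complex IV had the highest median level per length and complex I the lowest on both scales. On the exon union the medians were 95.1 ± 3.47 for complex IV, 87.0 ± 5.71 for complex III, 62.6 ± 3.88 for complex V, 58.1 ± 0.427 for complex II and 40.2 ± 0.929 for complex I. On the principal transcript they were 218 ± 11.1, 119 ± 10.96, 199 ± 4.95, 88.5 ± 1.36 and 71.0 ± 3.24 for the same complexes. Complexes III and V thus exchanged places with the choice of length.

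**Figure D2:**
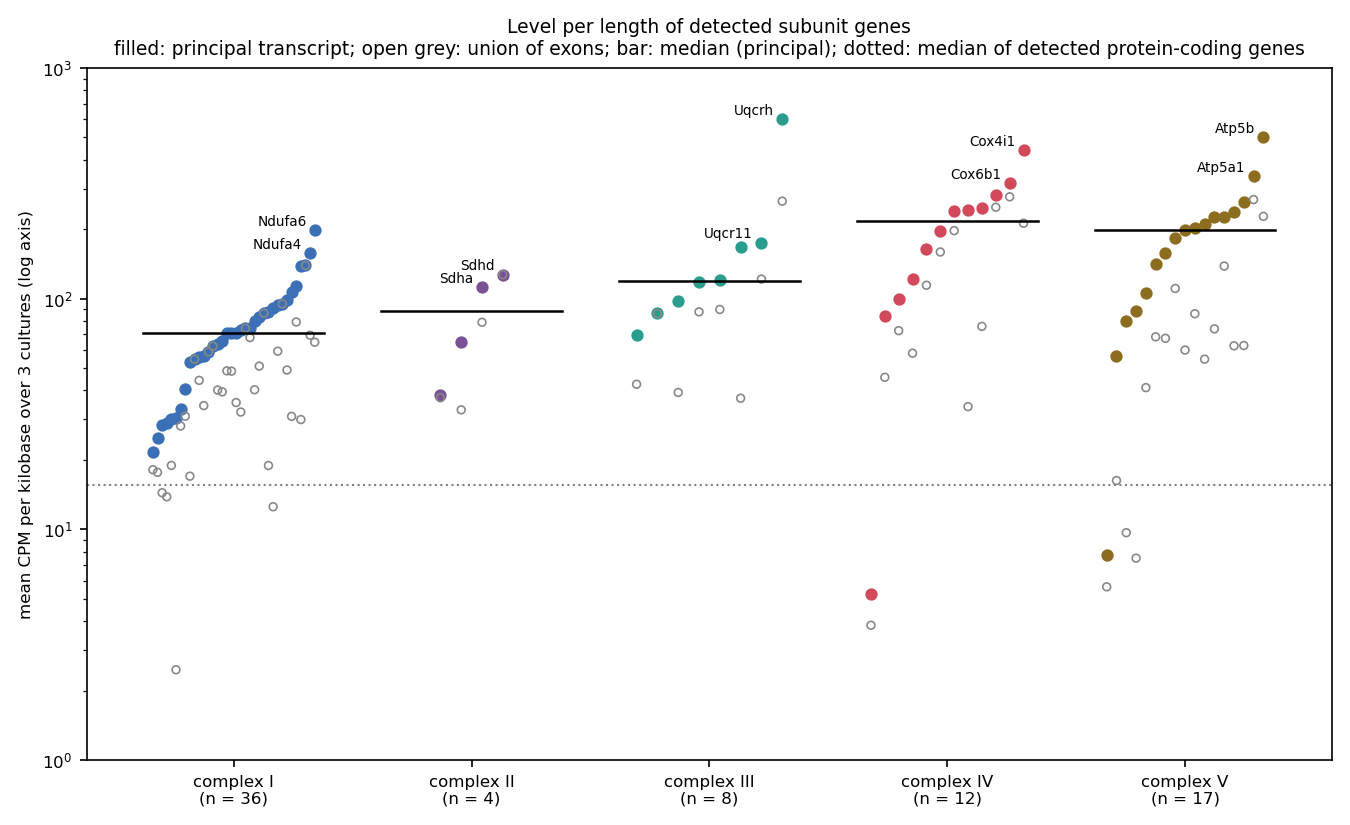
Mean CPM per kilobase over the 3 cultures (log axis) of each detected gene by complex, on the principal transcript (filled) and on the exon union (open grey), with the median of the filled points as a bar. The bars lie at 71.0, 88.5, 119, 218 and 199 for complexes I to V, all above the dotted line at 15.6 for detected protein-coding genes.

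Complex I was read from all 7 nuclear core genes, which encode subunits of its peripheral arm, the flavin and iron-sulfur subunits among them. Ndufs7, the iron-sulfur subunit next to the quinone site (chr10:80249121-80256794, plus strand), had 46.7, 51.3 and 68.2 CPM in cultures 1, 2 and 3. In this gene culture 3 stood apart above the other cultures, with a ratio of 1.46. Ndufs3, another core subunit of the same arm, had 31.5, 26.8 and 32.1 CPM, with culture 2 lowest.

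The flavin-binding Ndufv1, which takes the electrons from NADH, and its iron-sulfur neighbour Ndufv2 occur in equal number in the assembled enzyme. Per kilobase they were at a ratio of 0.909 ± 0.0640 on the exon union and 1.14 ± 0.0802 on the principal transcript, on either side of parity. Ndufs1, the largest core subunit, had 140.2, 137 and 135 CPM, and Ndufs8 38.3, 40.2 and 41.3, and neither was called different between the cultures. The level of Ndufs3 is uncertain, since 39.7% of its 50-base words also occur in transcripts of other genes, Kbtbd4 (27.9 CPM) among them.

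Of 30 protein-coding accessory genes of complex I, 29 were detected, at 13.9 to 157 CPM. Ndufa1, Ndufa2 and Ndufa8, small accessory subunits, were highest on the exon union at 139, 94.9 and 86.5 CPM per kilobase, and had the same values on the principal transcript, which is their whole exon union. On the principal transcript Ndufa6 led at 198 (64.7 on the union). Ndufb2 was lowest on the union at 2.46, but had 30.5 on its principal transcript, and Ndufb7 had 12.5 and 91.0. Ndufa4, named for complex I and placed in complex IV by later structural work, had 94.0, 96.1 and 97.5 CPM, and its cultures were not called different.

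Between the cultures, 18 of the 36 tested genes of complex I were called different (chi-square test of the reads against Poisson noise), with Benjamini-Hochberg adjustment over 13141 genes. By the same rule 32.8% of all genes tested were called. The test compares single libraries with counting noise and says nothing of conditions. Of the 36 tested genes, 15 were called with culture 3 highest, beside 10.2% of all genes tested. The largest ratios after Ndufs7 (chi-square test, adjusted p = 4.4e-34) belonged to the accessory genes Ndufa7 (50.2, 53.9 and 65.2 CPM, adjusted p = 1.0e-15) and Ndufb6 (32.5, 33.4 and 42.1, adjusted p = 1.4e-11). Their ratios were both 1.30, and culture 3 separated from the other cultures in each. Ndufv2 and Ndufv3 were called with culture 3 lowest, at 91.5 and 152 CPM, and Ndufs3 with culture 2 lowest (chi-square test, adjusted p = 4.4e-04). Of the 18 calls 12 remained without culture 1, 16 without culture 2 and 5 without culture 3. In these settings 12, 18 and 5 of the 36 genes were called, beside 11.1, 29.5 and 20.2% of all genes tested. The call of Ndufs3 ended without culture 2 (chi-square test, adjusted p = 0.762), and those of Ndufa7 and Ndufb6 without culture 3 (adjusted p = 0.140 and 0.753). Ndufa13, Ndufa2 and Ndufs7 were called whichever culture was left out. Exons of Ndufb6 overlap the opposite-strand gene Smim27 (3.62 CPM) over 39.0% of their length, and the strand setting of the counting is not given in the sources used here.

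Complex II was detected with all 4 genes. Sdha, the flavoprotein that oxidises succinate, had 325, 330 and 323 CPM, and the cultures were not called different (adjusted p = 0.35, chi-square test). Sdhb, the iron-sulfur subunit, had 70.6, 74.2 and 76.7 CPM, and the membrane anchors Sdhc and Sdhd had 118, 119 and 125 and 152, 155 and 163 CPM. In Sdhb, Sdhc and Sdhd culture 3 was highest by a ratio of 1.06 to 1.09. All 3 were called (chi-square test, adjusted p = 0.040, 0.047 and 0.0039). Of all genes tested, 32.8% were called, and 10.2% were called with culture 3 highest. None of the 3 was called without culture 1 or without culture 3. With mitochondrially encoded genes left out of the sums the calls of Sdhb and Sdhc also ended (chi-square test, adjusted p = 0.069 and 0.084). The anchors pair in equal number in the enzyme. Per kilobase Sdhd exceeded Sdhc by 3.42 ± 0.0219 times on the exon union and 3.33 ± 0.0213 on the principal transcript, and Sdha exceeded Sdhb by 2.40 ± 0.110 and 1.74 ± 0.0795.

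Complex III held 3 of the 4 largest ratios between cultures of the whole set, all in small subunits. Uqcrq, which encodes a small subunit that contacts cytochrome b (chr11:53427922-53430831, minus strand), had 54.7, 64.0 and 84.7 CPM. Uqcr10 (chr11:4701973-4704342, minus strand) had 44.7, 50.3 and 62.3 CPM, and Uqcr11 (chr10:80402997-80406830, minus strand) 67.2, 75.9 and 90.7. In each, culture 3 was the highest and culture 1 the lowest. The ratios were 1.55, 1.39 and 1.35 (chi-square test, adjusted p = 3.2e-51, 2.8e-22 and 2.5e-26), and these 3 calls held with any culture left out.

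The other 2 small subunit genes did not share that difference. Uqcrh, the acidic hinge protein that meets cytochrome c, was the most abundant gene of the set per kilobase of principal transcript, at 599, with 265 on the exon union. It had 324, 335 and 324 CPM, with culture 2 highest by a ratio of 1.03. It was called (adjusted p = 0.046, chi-square test), but not without culture 1, 2 or 3 (adjusted p = 0.081, 0.99 and 0.062), and with mitochondrially encoded genes left out of the column sum culture 3 was lowest in place of culture 1 (ratio 1.04). Uqcrb had 38.4, 37.0 and 36.4 CPM and was not called (chi-square test, adjusted p = 0.57).

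The larger subunits of complex III varied less. Uqcrc1 and Uqcrc2, the core proteins, had 155, 161 and 170.0 CPM and 218, 229.6 and 224. Uqcrfs1, the Rieske iron-sulfur protein that takes electrons from the quinol, had 111, 116 and 126. Culture 1 was lowest in these 3, which were called with ratios of 1.06 to 1.14. The calls of Uqcrc1 and Uqcrfs1 ended without culture 3 (adjusted p = 0.217 and 0.176, chi-square test) and that of Uqcrc2 without culture 1 or 2 (0.375 and 0.177). Per kilobase Uqcrc1 stood at 0.447 ± 0.0187 of Uqcrc2 on the exon union and 0.831 ± 0.0348 on the principal transcript. In all, 7 of the 8 genes of complex III were called, beside 32.8% of all genes tested, and 5 with culture 3 highest, beside 10.2%. Cyc1, the cytochrome c1 gene, which the naming rule leaves out, had 95.2, 90.5 and 98.6 CPM. Also left out by the rule were Ndufab1 (49.0, 41.6 and 43.9 CPM) and Usmg5 (59.2, 56.2 and 56.1), with culture 1 highest in both. Ndufb1-ps, left out by its name, had 141, 140 and 159 CPM, with culture 3 highest.

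Complex IV was read almost wholly from the widespread form of each subunit. Cox4i1, which encodes the largest nuclear subunit (chr8:120668222-120674207, plus strand), had 311, 327 and 349 CPM, while its lung and hypoxia-associated paralogue Cox4i2 had 0.0624, 0.266 and 0.134, a total of 16 reads. Per kilobase of principal transcript Cox4i1 was 2076 times higher (95% Poisson interval of the smaller count 1279 to 3633). Cox6a1 had 100.1, 108 and 127 CPM, and the heart and muscle form Cox6a2 had 19 reads in all, a ratio of 728 (466 to 1208). Cox6b1 had 189, 203 and 195 CPM, and the testis form Cox6b2 1 read, a ratio of 15194 with an interval from 2727 to 600122. Intervals cover counting error only.

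No read fell on Cox7b2, Cox8b or Cox8c, forms known from testis or from heart and muscle. Against 3 reads over the 3 cultures as the limit for a count of 0, Cox7b (242, 241 and 234 CPM) was at least 4452-fold higher than Cox7b2 per kilobase, and Cox8a (144, 155 and 164 CPM) at least 3480-fold higher than Cox8b and 4428-fold higher than Cox8c. Cox7a1, the heart and muscle form of its subunit, was the alternative form that passed the detection limit. It had 2.12, 1.89 and 2.15 CPM from 212 reads, and the widespread form Cox7a2 had 106, 107 and 111, 31.4 times more per kilobase (27.4 to 36.0). Ndufa4 was at 1893 times (961 to 4386) the level of the hypoxia-induced Ndufa4l2, which had 8 reads. In bulk RNA, fewer cells with a transcript and less of it in every cell cannot be told apart.

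**Figure D3:**
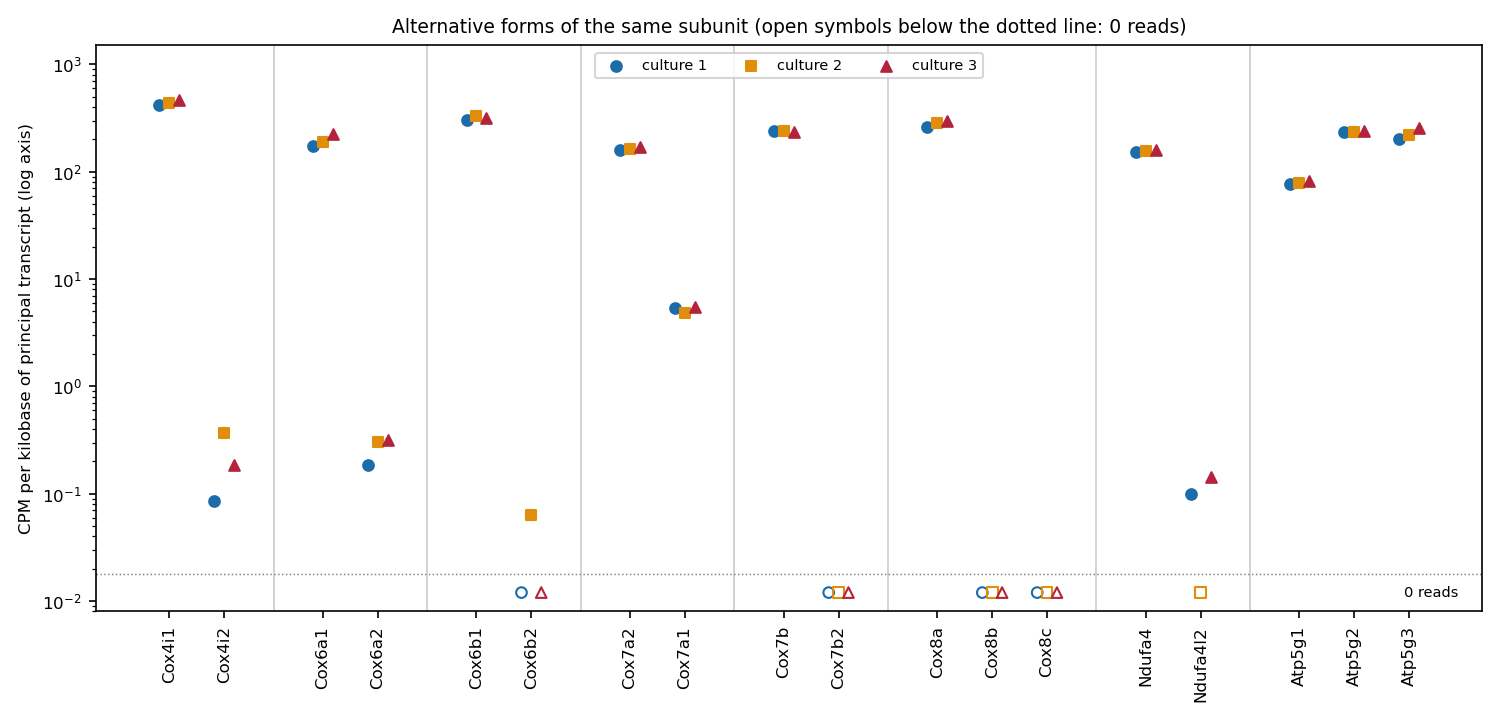
CPM per kilobase of principal transcript (log axis) for alternative forms of a subunit, with a symbol per culture and open symbols at the bottom for 0 reads. Widespread forms lie above 100 and the alternative forms of complex IV below 1, except Cox7a1 near 5.23. The means over cultures of the 3 Atp5g genes run from 79.7 to 237.

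The 250 bases before the start of the widespread and the unread form of 2 subunits are set side by side, since no read fell on one gene of each pair. They are from RefSeq on GRCm38.p6, free of annotated exons, and run 5′ to 3′ on the strand of the gene. The stretch of Cox8a holds 11 CpG pairs and that of Cox8b 1, while Cox7b holds 5 and Cox7b2, which had no read, 9. The CpG count thus did not order the 2 pairs alike. Capitals mark the GC box GGGCGG, which Cox7b2 has. The other 3 stretches hold no whole match on either strand to it or to the NRF1, ETS, YY1 and ERR words given with the promoters. The Cox8a stretch ends within a match to the ETS word, which begins 5 bases before the start and runs past it. Another ETS match begins 32 bases after the Cox8a start, outside the stretch.
Cox8a, chr19:7217617-7217866: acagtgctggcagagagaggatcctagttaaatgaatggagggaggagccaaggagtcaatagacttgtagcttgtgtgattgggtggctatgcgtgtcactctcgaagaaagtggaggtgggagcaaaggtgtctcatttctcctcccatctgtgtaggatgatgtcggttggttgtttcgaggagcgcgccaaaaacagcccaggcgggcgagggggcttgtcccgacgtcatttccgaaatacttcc
Cox8b, chr7:140900447-140900696: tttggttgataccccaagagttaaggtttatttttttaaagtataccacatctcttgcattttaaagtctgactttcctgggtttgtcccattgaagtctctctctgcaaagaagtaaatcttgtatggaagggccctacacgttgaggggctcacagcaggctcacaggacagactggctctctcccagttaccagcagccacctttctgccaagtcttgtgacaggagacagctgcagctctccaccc
Cox7b, chrX:106015450-106015699: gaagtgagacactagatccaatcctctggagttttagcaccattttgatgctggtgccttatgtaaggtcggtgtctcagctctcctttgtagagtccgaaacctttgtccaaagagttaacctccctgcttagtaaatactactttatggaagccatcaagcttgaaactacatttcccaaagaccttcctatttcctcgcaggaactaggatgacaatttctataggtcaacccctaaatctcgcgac
Cox7b2, chr5:71548206-71548455: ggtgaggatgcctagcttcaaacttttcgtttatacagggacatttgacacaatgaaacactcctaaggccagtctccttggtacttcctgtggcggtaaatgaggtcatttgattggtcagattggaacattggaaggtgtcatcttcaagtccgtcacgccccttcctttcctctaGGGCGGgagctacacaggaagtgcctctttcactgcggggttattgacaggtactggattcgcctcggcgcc

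As shares of the summed level per kilobase of each family, the widespread form took 99.9 ± 0.0615% for Cox4i1, 99.8 ± 0.0346% for Cox6a1 and 96.8 ± 0.204% for Cox7a2 on the exon union. The members of complex IV with no alternative protein-coding form in the set were Cox5a (159 ± 9.02 CPM), which binds a thyroid hormone metabolite, Cox5b (72.4 ± 6.08), which binds zinc, Cox6c (121 ± 4.10), Cox7c (65.6 ± 6.05) and Cox7a2l (107 ± 3.85), which helps to join complexes III and IV into supercomplexes. Per kilobase of exon union Cox6b1, Cox8a and Cox4i1 were the highest of the complex at 277, 249 and 212, and Cox4i1 led on the principal transcript at 442. Cox6c had 34.0 on the union and 241 on its principal transcript. Cox5a exceeded Cox5b, present in equal number, by 1.67 ± 0.0515 times on the union and 2.96 ± 0.0914 on the principal transcript.

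Of the 12 tested genes of complex IV, 9 were called different between the cultures by the chi-square test, beside 32.8% of all genes tested, and 7 with culture 3 highest, beside 10.2%. The largest ratios were those of Cox6a1 (1.27, chi-square test, adjusted p = 3.1e-25) and Cox7c (60.5, 64.1 and 72.3 CPM, ratio 1.19, adjusted p = 4.2e-08). Cox4i1 and Cox8a had ratios of 1.12 and 1.14, with culture 3 highest. The calls of Cox6a1, Cox4i1 and Cox8a held with any culture left out, and that of Cox7c ended without culture 3 (chi-square test, adjusted p = 0.214). Cox6b1 was called with culture 2 highest (chi-square test, adjusted p = 0.0010), and not without culture 1 or 2 (0.065 and 0.25). Cox7a2l was called with culture 3 lowest (chi-square test, adjusted p = 0.025), and not without culture 2 or 3 (0.157 and 0.477). Cox7b had the smallest ratio, 1.03, and was not called.

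Complex V was detected with 17 of its 18 genes, among them all 5 of the catalytic head. Atp5b, the catalytic β subunit (chr10:128083273-128090391, plus strand), had 949, 963 and 979.6 CPM, and Atp5a1, the α subunit beside it (chromosome 18), had 809.7, 849.5 and 869.6. The γ, δ and ε subunits, which form the central stalk, had 264 ± 3.61 (Atp5c1), 132 ± 17.2 (Atp5d) and 110.0 ± 12.9 (Atp5e). The α and β subunits outnumber the stalk subunits in the enzyme. Per kilobase Atp5b exceeded Atp5c1 by 1.64 ± 0.0323 times on the exon union and 2.22 ± 0.0437 on the principal transcript, and Atp5a1 exceeded Atp5c1 by 1.94 ± 0.0660 and 1.51 ± 0.0511. The order of Atp5b and Atp5a1 turned with the length, at a ratio of 0.846 ± 0.0182 on the union and 1.48 ± 0.0318 on the principal transcript.

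Subunit c, which forms the membrane ring that turns, is encoded by 3 genes whose mature proteins are the same. Atp5g1, Atp5g2 and Atp5g3 had 47.5 ± 1.51, 105 ± 1.08 and 161 ± 19.1 CPM. On the exon union they took 6.63 ± 0.224, 42.9 ± 2.38 and 50.5 ± 2.60% of the family, and on the principal transcript 14.7 ± 0.382, 43.8 ± 2.09 and 41.5 ± 2.47%. Atp5g1 was the smallest share on both scales, whereas the order of Atp5g2 and Atp5g3 changed with the length. Atp5g3 had 145, 156 and 183 CPM, with culture 3 above the others by a ratio of 1.26 to the lowest, and the other 2 were not called. The split of reads is uncertain: 100% of the 50-base words of Atp5g2 and 66.0% of those of Atp5g1 also occur in annotated processed pseudogenes. Reads on those pseudogenes were few, at 0.682 CPM for Gm10175 and 0.161 for Gm6612.

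Of the peripheral stalk genes 2 of 4 were called different between the cultures, and of the membrane subunit genes 1 of 4, beside 32.8% of all genes tested. Of the stalk genes, Atp5h (subunit d) had 127, 126 and 126 CPM, a ratio of 1.008, and Atp5j (coupling factor 6) 169, 169.7 and 174. Atp5f1 (subunit b) had 165, 167 and 175 CPM, and Atp5o (oligomycin sensitivity protein, chr16:91925214-91931687) 128, 136 and 134.5. The membrane subunits Atp5k (e), Atp5j2 (f), Atp5l (g) and Atp5mpl (a small proteolipid) had means of 48.3 to 72.9 CPM. Those called were Atp5mpl, with 70.8, 70.5 and 77.3 CPM (ratio 1.10), Atp5f1 (ratio 1.06) and Atp5o (ratio 1.06), with chi-square test adjusted p = 0.0035, 0.014 and 0.037. Without culture 3 the calls of Atp5mpl and Atp5f1 ended (chi-square test, adjusted p = 0.953 and 0.647), and that of Atp5f1 also without culture 1 (0.108). In sum the membrane group gave 243, 240.3 and 246 CPM in cultures 1, 2 and 3, and the stalk group 589, 599 and 609. Atp5l had the lowest union value of the complex after Atp5s, 7.50 CPM per kilobase, and 88.8 on its principal transcript, and 84.8% of its 50-base words occur in other genes. Atp5s, which encodes coupling factor B, was lowest on the union at 5.63. Atp5h and Atp5o also shared over 50% of their words with other transcripts, as did Cox7c in complex IV. In all, 32 of the 77 detected genes of the set shared no such word.

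Of the 17 tested genes of complex V, 8 were called, beside 32.8% of all genes tested and 40.9% of those whose mean reached 10 CPM, and 7 with culture 3 highest, beside 10.2% and 13.8%. Atp5g3, Atp5d (118, 127 and 151 CPM) and Atp5e (99.6, 106 and 124 CPM) had ratios of 1.26, 1.28 and 1.25 (chi-square test, adjusted p = 1.7e-33, 4.7e-33 and 4.1e-22). Culture 3 lay apart above the other cultures in these 3 genes. Atp5a1 and Atp5b were called at ratios of 1.07 and 1.03 (chi-square test, adjusted p = 1.4e-15 and 0.0012). The calls of Atp5g3, Atp5d and Atp5a1 held with any culture left out. That of Atp5e ended without culture 3 (chi-square test, adjusted p = 0.052), that of Atp5b without culture 1 or 3 (0.13 and 0.23), and that of Atp5o (adjusted p = 0.037) without culture 1 or 2 (0.82 and 0.059) or without mitochondrially encoded genes in the sums (0.065).

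Over the whole set, the nuclear genes were higher in culture 3 and lower in culture 1 by small amounts. Their summed level was 9035, 9306 and 9682 CPM in cultures 1, 2 and 3, a ratio of 1.07. By complex the sums were 2372, 2429 and 2551 for complex I, 666, 678 and 687 for complex II, 1012, 1068 and 1118 for complex III, 1607, 1661 and 1734 for complex IV, and 3377, 3470.3 and 3591.5 for complex V. Culture 3 was highest and culture 1 lowest in all 5 complexes. The ratios of highest to lowest were 1.08, 1.03, 1.10, 1.08 and 1.06, and sums have no test here.

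Gene by gene, 45 of the 77 tested were called different between the cultures, beside 32.8% of all 13141 genes tested. With culture 3 highest 37 were called, beside 10.2% of all genes, and with culture 3 lowest 3, beside 13.8%. Precision grows with reads, and the genes of the set are well covered. Where the mean reached 10 CPM, 59.2% of the 76 in the set were called beside 40.9% of 8827, and 48.7% were called with culture 3 highest beside 13.8%. Without culture 3, 17 of the 77 were called, a share close to the 20.2% of all genes. Without culture 1, 30 of the 77 were called beside 11.1%, and without culture 2, 39 of the 77 beside 29.5%. The 12 that were called whichever culture was left out are Ndufa13, Ndufa2, Ndufs7, Uqcr10, Uqcr11, Uqcrq, Cox4i1, Cox6a1, Cox8a, Atp5a1, Atp5d and Atp5g3. The share of all genes that met this last rule is not given here, so the 12 cannot be set against it.

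Culture 3 exceeded culture 1 in 59 of the 76 genes with at least 10 CPM, which is 77.6% beside 48.3% of all such genes, and culture 2 exceeded culture 1 in 57, which is 75% beside 50.6%. The median log2 ratio of culture 3 to culture 1, with a pseudocount of 1 CPM, was 0.086 in the set and -0.0048 over all genes. The differences were small in size: the median ratio of highest to lowest culture was 1.08 in the set and 1.08 over all genes. A ratio above 1.2 was reached by 15 genes of the set, 19.7% beside 12.8%. With median-of-ratios scaling the median over all genes moved to 0.025 and that of the set to 0.12, and with mitochondrially encoded genes left out of the sums they were -0.014 and 0.076.

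**Figure D4:**
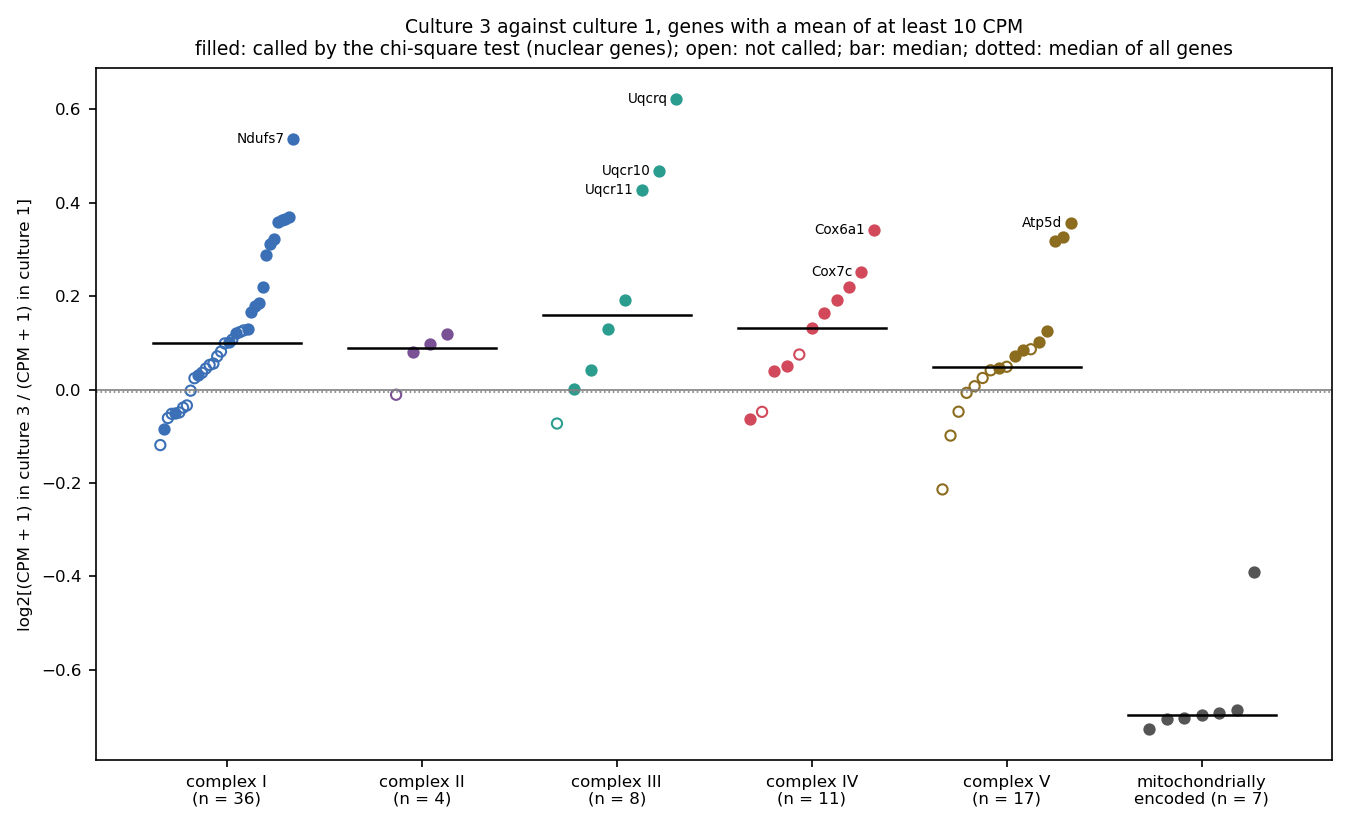
log2 ratio of culture 3 to culture 1 (CPM + 1) for genes whose mean reached 10 CPM, by complex and for the mitochondrially encoded genes, with the median as a bar. Of 76 nuclear genes 59 lie above 0, led by Uqcrq and Ndufs7, while the 7 mitochondrially encoded genes all lie below 0.

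GC content of the transcripts moved with this difference, and their length did so more weakly. Among the genes of the set, the log2 ratio of culture 3 to culture 1 had a Pearson r of 0.46 and a Spearman rho of 0.41 with the GC content of the principal transcript (76 genes), beside 0.22 and 0.23 over all 8823 genes with a value. With the log2 length of that transcript, r and rho were -0.30 and -0.22 in the set, and -0.060 and -0.043 over all genes. All points come from the same pair of libraries, so these are descriptions across genes. In the 19 genes of the set with transcripts under 1000 bases and at least 55% GC, culture 3 was above culture 1 in 19, with a median log2 ratio of 0.16. Among 176 other genes of that length and GC the share was 79.5% and the median 0.13. In the 30 short genes of the set with lower GC the count was 21 and the median 0.052, beside 54.7% and 0.0083 in 364 other genes. In the 23 genes of at least 1000 bases and lower GC it was 16, with a median of 0.046, beside 42.4% and -0.020 in 6273 other genes. The part of GC content and length in the result was not tested. Of the 7 muscle marker genes, whose summed level was 125, 148 and 187 CPM in cultures 1, 2 and 3, Ckm (120, 144 and 184 CPM) moved with the set, while Tnni3 (4.24, 3.04 and 2.93) was lowest in culture 3 and Myh4 and Mb had no read. The part of these markers in the result was not tested.

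**Figure D5:**
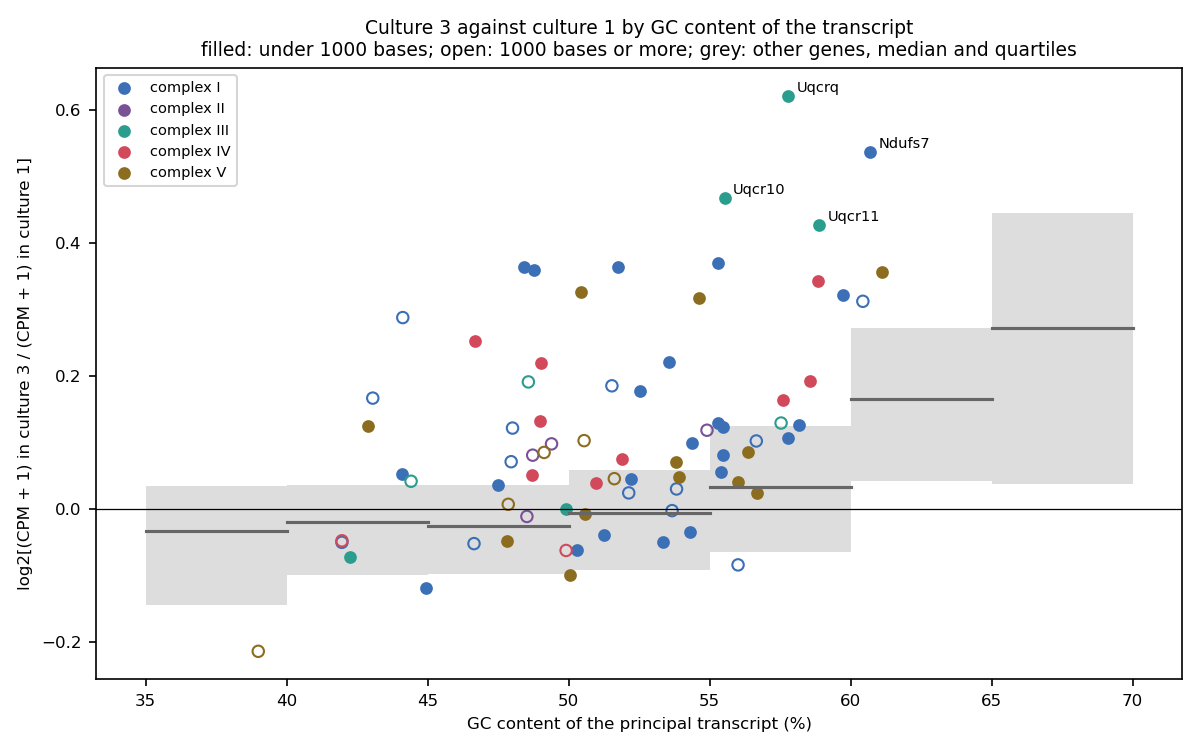
log2 ratio of culture 3 to culture 1 against the GC content (%) of the principal transcript for the 76 genes, filled where it is shorter than 1000 bases. Grey bands give the quartiles and grey lines the median of other genes in bins of 5%, which goes from -0.033 at 35 to 40% to 0.16 at 60 to 65%.

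Position also went with the difference for 3 of the called genes. Atp5d, Ndufs7 and Uqcr11 lie within chr10:80138632-80406830. Of the 9 other genes with at least 10 CPM in that stretch, 7 were higher in culture 3 than in culture 1, beside 48.3% of all such genes. Their median log2 ratio was 0.16, and 6 were called with culture 3 highest, beside 13.8%. Transcripts of Atp5d, Ndufs7 and Uqcr11 have 61.1, 60.7 and 58.9% GC. Genes outside the set had a median log2 ratio of 0.16 at 60 to 65% GC and 0.033 at 55 to 60%. The parts of position and GC content in this were not tested. Uqcrq and Uqcr10 lie on chromosome 11, far from each other.

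The mitochondrially encoded subunits of the same complexes stood in the reverse order of cultures. Their summed level was 15794.5, 12388 and 9732 CPM in cultures 1, 2 and 3. Nuclear over mitochondrially encoded CPM was therefore 0.368, 0.478 and 0.639 in complex I, 0.460, 0.627 and 0.828 in complex III, and 0.225, 0.296 and 0.395 in complex IV. Of the 13 mitochondrial genes 8 were detected and 7 called, all 7 with culture 3 lowest. The reads of mt-Atp6 (1.06 CPM), mt-Atp8 (0.148) and mt-Co3 (0.923) were so few beside mt-Co1 (5712) that no such ratio is given for complex V, and that of complex IV rests on mt-Co1. Both sets are parts of the same sums. With mitochondrial genes left out of the sum, 57 of the 76 nuclear genes were above culture 1 in culture 3, beside 3964 of 8827 over all genes. The part of the mitochondrial reads in the result was not tested.

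The genes that build and supply the complexes were also expressed nearly in full. Lists of assembly factors, electron carriers with coenzyme Q synthesis, and regulators held 79 measured genes, of which 76 were detected. The exceptions were Pet117 (no read), a complex IV assembly factor, Cyct (0.107 CPM), the testis cytochrome c, and Ppargc1a (0.0188 CPM), the coactivator of mitochondrial biogenesis known as PGC-1α. Of the 76, 20 were called by the chi-square test, 11 with culture 3 highest and 3 with culture 3 lowest, beside the 32.8%, 10.2% and 13.8% of all genes.

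By role, complex I assembly had 15 of 15 genes detected and 4 called, complex II assembly 4 of 4 and 1, complex III assembly 6 of 6 and 2, and complex IV assembly 21 of 22 and 6. ATP synthase assembly and inhibition had 4 of 4 detected and none called. These counts stand beside the 32.8% called of all genes tested. The highest per kilobase of exon union in each were Ndufaf1 (16.7), Sdhaf4 (21.6), Uqcc2 (62.2), Cox14 (54.1) and Atpif1 (65.3), the last of which encodes the inhibitor of ATP hydrolysis. Uqcc2, needed to make cytochrome b, had 46.8, 51.1 and 58.3 CPM and was called with culture 3 highest. Cox17, the copper chaperone, had 19.1, 13.6 and 14.4 CPM, with culture 1 highest. Of the electron carrier and coenzyme Q genes 15 of 16 were detected and 5 called, beside the same 32.8%. Coq9, a coenzyme Q synthesis factor, was highest per kilobase at 19.1. Cytochrome c itself (Cycs) had 27.5, 26.8 and 31.01 CPM and was called.

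Among 12 regulators of respiratory genes 11 were detected and 2 called, beside 32.8% of all genes tested. Yy1 (162 ± 2.68 CPM) was the highest per kilobase of exon union at 25.2, and Gabpa (122 ± 3.30 CPM) had 21.4, with 26.2 and 55.3 on the principal transcript. Nrf1 had 44.6 ± 1.93 CPM and Tfam, which packages mitochondrial DNA, 62.0 ± 1.39. None of these 4 was called. Esrra, the estrogen-related receptor α gene, had 38.5, 37.2 and 47.4 CPM, and Polrmt, the mitochondrial RNA polymerase gene, 27.6, 30.2 and 34.7. Both were called with culture 3 highest, as were 10.2% of all genes tested. The related coactivator genes Ppargc1b (12.4 ± 0.609) and Pprc1 (94.2 ± 1.60) were detected, in CPM.

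Promoters were read from RefSeq windows on GRCm38.p6, from 250 bases before to 50 after a start, which were found for 66 of the 88 symbols (71 windows). Words of factors known to act on respiratory genes were searched on both strands. GCATGCGC, a form of the NRF1 site, was in 14.7% of 68 windows of detected genes of the set, beside 5.74% of windows of detected protein-coding genes and 2.71% of all windows. AAGATGGC, a form of the YY1 site, was in 13.2%, beside 4.98% and 2.75%, and in 8 of those 9 windows it began at or after the start base. TCAAGGTCA, bound by estrogen-related receptors, was in 2 windows (2.94%, beside 0.261% and 0.423%), those of Atp5g3 and Sdhd. CCGGAAG, an ETS site that GABPA binds, was in 23.5%, beside 19.7% and 8.86%. The GC box GGGCGG was in 36.8%, beside 63.6% and 35.7%, and CCAAT was in 41.2%, beside 38.3% and 37.4%. Among 89 matches of the words other than CCAAT in windows of the set, 5 pairs of NRF1 matches on opposite strands and 1 pair of different words overlapped. These differences in share were not tested, and a match is a run of letters that shows no binding.

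Upstream stretches free of annotated exons are printed 5′ to 3′ on the strand of the gene, with matches to these words other than CCAAT in capitals. Ndufa6 and Cox6a1 hold a match to the NRF1 word on one or the other strand, 83 and 162 bases before the start, and Atp5g3 the word of estrogen-related receptors, 52 bases before the start. They are shown as examples of a word within an exon-free stretch. Ndufa8, Ndufa11, Atp5g2, Atp5k and Atp5l also hold the NRF1 word and were not called different between the cultures. Sdhb, Uqcr11 and Uqcrc1 hold it too and were called, as were Ndufa6 and Cox6a1. Over the set 45 of the 77 tested genes were called, beside 32.8% of all genes tested. The 3 stretches have 62.6, 66.9 and 54.0% GC.
Ndufa6, chr15:82354323-82354541: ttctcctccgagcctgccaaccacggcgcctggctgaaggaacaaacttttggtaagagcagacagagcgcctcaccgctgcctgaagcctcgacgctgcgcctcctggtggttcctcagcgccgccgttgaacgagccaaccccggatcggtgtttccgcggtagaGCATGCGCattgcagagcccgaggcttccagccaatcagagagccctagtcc
Cox6a1, chr5:115348982-115349129: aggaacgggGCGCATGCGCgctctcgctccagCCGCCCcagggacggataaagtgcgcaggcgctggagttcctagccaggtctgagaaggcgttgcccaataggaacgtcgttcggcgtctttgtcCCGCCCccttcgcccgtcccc
Atp5g3, chr2:73911327-73911576: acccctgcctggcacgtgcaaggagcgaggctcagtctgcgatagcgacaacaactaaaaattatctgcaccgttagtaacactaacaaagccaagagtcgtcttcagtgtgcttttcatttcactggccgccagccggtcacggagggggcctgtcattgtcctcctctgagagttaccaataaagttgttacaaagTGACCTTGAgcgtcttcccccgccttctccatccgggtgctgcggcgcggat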

How the data were processed

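Polyadenylated RNA of 3 Ba/F3 cultures was sequenced as strand-marked libraries with 50-base single-end reads. The authors aligned the reads with HISAT2 to GRCm38 and counted them with their in-house GenSum program, per the design text of the series. The same aligner and build stand in the submitters' processing notes. Not given in the sources used here are the versions, the strand setting, the handling of multiply matching reads and the annotation.

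The authors deposited log2 values of reads per 10000000 with 1 added. Undoing the log gave whole reads for 100% of values within a tolerance of 0.01, and CPM were computed from these reads and the column sums. No count package was used, since the deposited unit is log2. In the deposited table, 23001 of 55486 rows have reads, and in 0 of those do identifier and symbol belong to 1 gene. Cultures 1 and 2 were read by identifier, and culture 3 by the coordinates or symbol of its row, through the GENCODE M21 annotation (GRCm38). Coordinates matched 54907 rows and symbols 333, and 246 rows were left out. The joined genes hold 99.98 to 99.99% of the reads.

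For genes whose mean reached 10 reads, the cultures were compared by a chi-square test against Poisson noise, adjusted by Benjamini-Hochberg over 13141 genes with a threshold of 0.05. The test was tried on simulated reads. Ratios between cultures were read where the mean reached 10 CPM. Shared 50-base words were sought in all annotated transcripts. The genes named are, in each complex, the 3 highest and 2 lowest per kilobase of exon union, the 2 largest and the smallest ratio between cultures, every gene not detected, all alternative forms, and, of each pathway list, the highest detected gene per kilobase and every gene not detected. Others were named after their values were seen, and 1 gene is not reported or drawn by name here. The members, the lists and the words searched were chosen with earlier results of these data known. Python 3.11.15, pandas 2.3.3, numpy 2.4.6, scipy 1.17.1 and matplotlib 3.10.9 were used.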

Additional observations from a re-analysis of the deposited data

How the results depend on the processing

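Detection of the set varied little: 77 genes at 0.5 CPM or with 1 CPM in any culture, and 76 at 5 CPM, and 86 and 78 of the 92 list genes at 0.5 and 5 CPM, beside 84. The count of calls was 49 with median-of-ratios scaling (34.3% of all genes tested), 43 with mitochondrially encoded genes left out of the sums (32.8%), 36 on the rows as deposited (30.3%), 41 with no minimum of reads (17.0%) and 45 with a minimum of 100 (40.2%), beside 45 (32.8%). Leaving out cultures 1, 2 and 3 in turn gave 30 (11.1%), 39 (29.5%) and 17 (20.2%). The ratio of summed levels ranged over the cultures left out from 1.02 to 1.08 in complex I, 1.01 to 1.03 in II, 1.05 to 1.10 in III, 1.03 to 1.08 in IV and 1.03 to 1.06 in V. It moved to 1.05 in complex II with median-of-ratios scaling, and on the rows as deposited, which set different genes against each other, to 1.10 in II and 1.23 in V. On the longest transcript the medians per kilobase were 57.1, 86.2, 94.5, 129 and 121 for complexes I to V and the sums 2096, 338, 1021, 2015 and 2287. On the principal transcript the medians were 71.0, 88.5, 119, 218 and 199 and the sums 2713, 342, 1434, 2438 and 3229, beside sums of 1629, 276, 769, 1499.9 and 1361 on the exon union. The shares of Atp5g1 and Atp5g3 were 3.003 and 55.5% on the longest and 14.7 and 41.5% on the principal transcript, and Cox7a2 had 97.5% on the longest. Without genes that share most 50-base words the median of complex IV was 114, beside 95.1. Of 37 genes named by the rule, cultures 1 and 3 changed order for Cox6b1 (ratio 1.14) and Uqcrc1 (1.08) on the rows as deposited and for Uqcrh (1.04) without mitochondrially encoded genes, which also ended the calls of Sdhb, Sdhc and Atp5o. Median-of-ratios scaling added calls of Cox7a2 and Ndufa8. The cause was not tested. A filter on words that occur once in the genome was not run, as no genome sequence was used here; transcripts stood in for it. No paired analysis was possible because the samples form 1 group. Reads carry no molecular identifiers, and genes under 3 reads cannot be told from 0.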
